A study of Rattus norvegicus with 8 samples.

Results

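A set of 9 genes was examined, chosen by the difference in signal between epileptogenic and control rats, with a clearly lower signal in the amygdala of rats developing epilepsy. The genes were Myo16, Zic2, Hecw1, Palmd, Adamtsl1, Plagl1, Car4, Tsga10 and Ccn3. All probe sets annotated to 1 of these symbols alone were taken, which gave 14 probe sets for the 9 genes, out of 31042 probe sets and 14217 named genes on the Affymetrix rat genome array. A probe set is a group of short probes that together give 1 signal on this array, for 1 or more transcripts. Because the difference between epileptogenic and control rats chose the genes, it is described below and carries no test. The effect of training and the values of related genes did not choose the 9 genes, and both are tested. The lists of related genes were, however, drawn up with earlier results of these data known.

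The study used electrical stimulation of the amygdala. Epileptogenic rats were stimulated and responded with status epilepticus, a seizure that does not stop by itself, and had shown no spontaneous seizure by the end of the study. Control rats were operated and not stimulated. All rats were habituated to the apparatus in 5 sessions, and on day 8 after stimulation they underwent 2 trials, each with a footshock of 1.5 mA for 1 s and a tone of 75 dB for 20 s. In paired training the tone ended together with the shock, and in unpaired training the shock came before the tone. Every control had therefore also been operated and trained, and the arrays analysed here include no untrained rat. The lateral and basal nuclei on the stimulated side were cut out with a laser 3 h after training. Each of the 4 groups (control unpaired, control paired, epileptogenic unpaired, epileptogenic paired) was measured on 2 arrays, A and B, and each array received RNA of 2 of the group's 4 rats, pooled after 2 rounds of amplification. The strain, sex and age of the rats are not given in the sources used here.

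The 9 genes share no pathway by design. Myo16 encodes an unconventional myosin of neurons that binds, in mouse brain, to adaptor proteins linking phosphoinositide 3-kinase to the WAVE complex, a regulator of actin branching. Palmd encodes palmdelphin, a cytosolic relative of the membrane-shaping protein paralemmin. Zic2 and Plagl1 are zinc finger transcription factors: Zic2 patterns the forebrain and guides axons during development, and Plagl1 (also called Zac1) is an imprinted gene that slows cell division. Hecw1 is a neuronal ubiquitin ligase of the NEDD4 family. Adamtsl1 and Ccn3 encode secreted proteins of the extracellular matrix, Car4 encodes a carbonic anhydrase anchored to the outer cell surface, known from brain capillaries, and Tsga10 encodes a protein of the sperm tail and the centrosome.

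Promoter sequences from RefSeq (GRCr8 assembly) were found for 8 of the 9 genes, in 11 windows that run from 250 bases before to 50 bases after an annotated start. The windows of the genes with the largest decreases, Myo16 and Zic2, are shown because their base composition is far apart, and that of Car4 because it holds the letters of a TATA box, here after the annotated start. Capitals mark every match on either strand to 5 motifs: the TATA box (TATAAA), the cyclic AMP response core (TGACG), the AP-1 site (TGANTCA), the GC box (GGGCGG) and the E-box CACGTG. The sequences read 5′ to 3′ on the gene's strand.
Myo16, chr16:85950319-85950618, minus strand: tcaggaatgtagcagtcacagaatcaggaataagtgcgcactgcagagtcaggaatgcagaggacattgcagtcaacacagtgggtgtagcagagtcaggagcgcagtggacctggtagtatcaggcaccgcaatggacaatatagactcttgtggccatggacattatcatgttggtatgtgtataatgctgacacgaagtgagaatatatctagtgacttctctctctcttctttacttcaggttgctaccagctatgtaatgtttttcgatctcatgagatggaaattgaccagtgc
Zic2, chr15:105983092-105983391, plus strand: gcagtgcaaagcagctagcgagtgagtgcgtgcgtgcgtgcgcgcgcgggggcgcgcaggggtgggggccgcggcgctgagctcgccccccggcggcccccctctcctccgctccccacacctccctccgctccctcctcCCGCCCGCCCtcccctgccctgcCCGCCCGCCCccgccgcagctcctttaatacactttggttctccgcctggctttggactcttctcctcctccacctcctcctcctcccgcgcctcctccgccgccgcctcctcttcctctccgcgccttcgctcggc
Car4, chr10:70325108-70325407, plus strand: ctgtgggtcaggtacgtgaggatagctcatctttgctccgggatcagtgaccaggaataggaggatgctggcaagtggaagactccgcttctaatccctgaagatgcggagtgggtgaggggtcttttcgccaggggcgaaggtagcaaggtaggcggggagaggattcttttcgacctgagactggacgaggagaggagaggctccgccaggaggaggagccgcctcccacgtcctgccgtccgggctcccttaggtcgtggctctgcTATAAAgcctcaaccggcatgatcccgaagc
The Myo16 window has less G and C than the median rat window and matches 0 of the 5 motifs. Zic2's is 74.3% G or C and holds 4 GC boxes, in pairs that overlap. Over 33469 rat promoter windows the median was 51.7%. A GC box was found in 5 of the 11 windows (of Zic2, Plagl1 and Adamtsl1) and in 33.1% of all windows, and a TATA box in 2 of the 11 (of Car4 and Adamtsl1) and in 14.2% of all windows. The cyclic AMP response core stood in 2 of the 11 windows, of Hecw1 and Adamtsl1 (21.2% of all windows), the E-box CACGTG in 1, of Plagl1 (6.42%), and the AP-1 site in 0 (7.33%). Adamtsl1 has several of the 11 windows. Those that start at 105010266 and 105010267 on chromosome 5 are nearly the same sequence, so their GC boxes are counted in both. By gene, a GC box was found in 3 of the 8. No motif was common to all of the 8 genes.

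On each gene's brightest probe set, all 4 epileptogenic arrays lay below all 4 control arrays for 9 of the 9 genes. Over the 18625 probe sets bright enough to be tested, this was so for 7.77%, and the reverse order held for 7.29%. By limma at an adjusted p under 0.05, 0.827% were called lower and 3.63% were called in either direction; since the genes were picked for this contrast, nothing is read from the count. Among 10364 named genes ordered by this difference, the 9 stood between rank 1 (Myo16) and rank 48 (Ccn3), as a description of this setting: with 16 added to each signal, the difference of Car4 was -1.17 and smaller in size than those of Palmd (-1.35), Adamtsl1 (-1.31) and Hecw1 (-1.28), while without the addition that of Car4 was the larger. The median difference of the 9 genes was -1.56 on the log2 scale, against -0.11 over all tested probe sets. In bulk tissue such as this, fewer cells that express a gene and less RNA in each cell cannot be told apart.

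**Figure D1:**
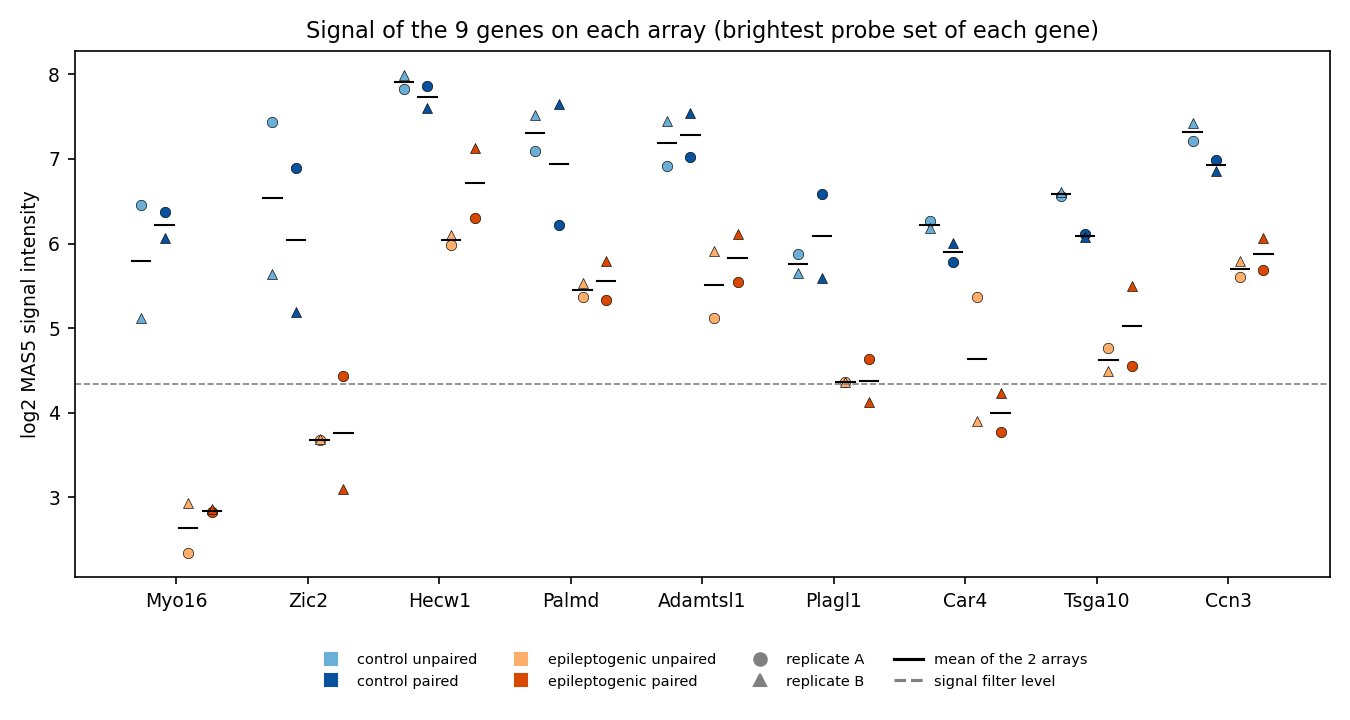
Log2 signal intensity of the brightest probe set of each of the 9 genes on 8 arrays, coloured by group, with circles for replicate A, triangles for replicate B and a black line at the mean of each group's 2 arrays. The dashed line is the signal filter level (log2 4.35). For each gene the 4 epileptogenic arrays lie below the 4 control arrays, and those of Myo16 all lie below the dashed line.

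Among the genes of cell shape, Myo16 had signal intensities of 87.8 and 34.8 in control unpaired (arrays A and B), 82.6 and 66.7 in control paired, 5.07 and 7.61 in epileptogenic unpaired, and 7.09 and 7.27 in epileptogenic paired arrays. The epileptogenic arrays were thus alike and very dim, and even the lowest control array stood 2.19 log2 units above the highest of them. The mean log2 signal was 6.00 ± 0.61 (SD, n = 4) in control and 2.74 ± 0.27 in epileptogenic arrays, which is 9.59-fold lower. All 4 epileptogenic arrays lay under the filter level of 4.35, so the size of the fold rests on dim signals: with 16 units added to every signal before the logarithm, the difference was -1.83 in place of -3.26.

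The Palmd signal was 137 and 183 in control unpaired, 74.5 and 201 in control paired, 41.2 and 46.2 in epileptogenic unpaired, and 40.2 and 55.3 in epileptogenic paired arrays. Control paired A was the lowest control and came nearest to the epileptogenic arrays, with a gap of 0.43 log2 units. The group means were 7.12 ± 0.65 and 5.50 ± 0.21 (log2, SD, n = 4), 3.07-fold lower in epileptogenic rats.

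Of the transcription factors, Zic2 showed the widest spread. Its signal was 173 and 49.8 in control unpaired, 119 and 36.4 in control paired, 12.8 and 12.9 in epileptogenic unpaired, and 21.5 and 8.60 in epileptogenic paired arrays. In both control groups array A was far above array B, yet the lowest control array remained above the highest epileptogenic one. The means were 6.29 ± 1.05 and 3.72 ± 0.54 (log2, SD, n = 4), 5.91-fold lower, with 3 of the 4 epileptogenic arrays under the filter level. Plagl1 measured 58.8 and 50.2 in control unpaired, 95.7 and 48.4 in control paired, 20.6 and 20.5 in epileptogenic unpaired, and 24.8 and 17.5 in epileptogenic paired arrays. Control paired A was the brightest, and the remaining controls were close together. The Plagl1 means of 5.93 ± 0.45 and 4.37 ± 0.21 (log2, SD, n = 4) correspond to a 2.94-fold lower signal.

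Hecw1, the ubiquitin ligase gene, was steady in controls and had 1 epileptogenic array apart from the others. Its signal was 228 and 255 in control unpaired, 233 and 194 in control paired, 63.1 and 68.5 in epileptogenic unpaired, and 78.7 and 139.6 in epileptogenic paired arrays. Epileptogenic paired B was thus the highest of its 4 arrays, at 0.47 log2 units under the lowest control. The means were 7.82 ± 0.17 and 6.38 ± 0.52 (log2, SD, n = 4), a 2.73-fold lower signal.

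Both genes of secreted matrix proteins kept well apart between the conditions. Adamtsl1, a relative of the ADAMTS proteases without protease activity, read 121 and 175 in control unpaired, 129.8 and 186 in control paired, 34.7 and 60.3 in epileptogenic unpaired, and 46.8 and 69.0 in epileptogenic paired arrays. In every group array B was brighter than array A. The means were 7.23 ± 0.31 and 5.67 ± 0.44 (log2, SD, n = 4), 2.95-fold lower. For Ccn3 the signal was 149 and 171 in control unpaired, 127 and 116 in control paired, 48.6 and 55.6 in epileptogenic unpaired, and 51.5 and 67.1 in epileptogenic paired arrays. The 4 values within each condition were close, with SDs of 0.25 and 0.20 around means of 7.12 and 5.79 (log2, n = 4). The Ccn3 signal was 2.52-fold lower.

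Car4 and Tsga10 completed the set. The Car4 signal was 76.8 and 72.5 in control unpaired, 55.1 and 64.3 in control paired, 41.5 and 14.995 in epileptogenic unpaired, and 13.7 and 18.8 in epileptogenic paired arrays. Epileptogenic unpaired A stood nearest to the controls, and the other 3 epileptogenic arrays lay under the filter level. Mean log2 signals of 6.06 ± 0.21 and 4.32 ± 0.73 (SD, n = 4) made it 3.33-fold lower. Tsga10 measured 94.6 and 97.7 in control unpaired, 69.0 and 67.5 in control paired, 27.2 and 22.5 in epileptogenic unpaired, and 23.5 and 45.03 in epileptogenic paired arrays. As for Hecw1, the highest epileptogenic array was paired B. The Tsga10 means were 6.34 ± 0.29 and 4.83 ± 0.46 (log2, SD, n = 4), 2.85-fold lower.

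Agreement between probe sets could be looked at in 3 genes, since the other 6 have 1 probe set each. Of the 5 further probe sets of Myo16, Palmd and Car4, 2 had a lower mean in epileptogenic rats, and in 1 of these the conditions did not overlap. The other 3 had a higher mean. These 3 lay under the filter level on average, and the further probe set of Myo16 read between 1.27 and 7.36 intensity units over the 8 arrays with the conditions overlapping. Car4's further probe set read between 1.37 and 18.9 units, with 4 of 4 control and 4 of 4 epileptogenic arrays under the filter level. When all probe sets of a gene were averaged, the log2 difference was -1.48 for Myo16, -0.85 for Palmd and -0.26 for Car4, in place of -3.26, -1.62 and -1.74.

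The 4 probe sets of Palmd gave unlike pictures. On 1376925_at the signal was 76.9 and 78.4 in control unpaired, 48.4 and 44.3 in control paired, 5.94 and 13.3 in epileptogenic unpaired, and 39.5 and 30.2 in epileptogenic paired arrays. The low values were therefore those of the unpaired epileptogenic group, with a difference from controls of -3.12 after unpaired and -0.42 after paired training (log2). On the brightest probe set, 1376924_a_at, the same differences were -1.86 and -1.38. On 1382864_at they were -0.68 and -0.19 and the conditions overlapped, and 1395734_at was under the filter level on all 8 arrays. Which transcripts of Palmd each probe set reads was not analysed here.

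**Figure D2:**
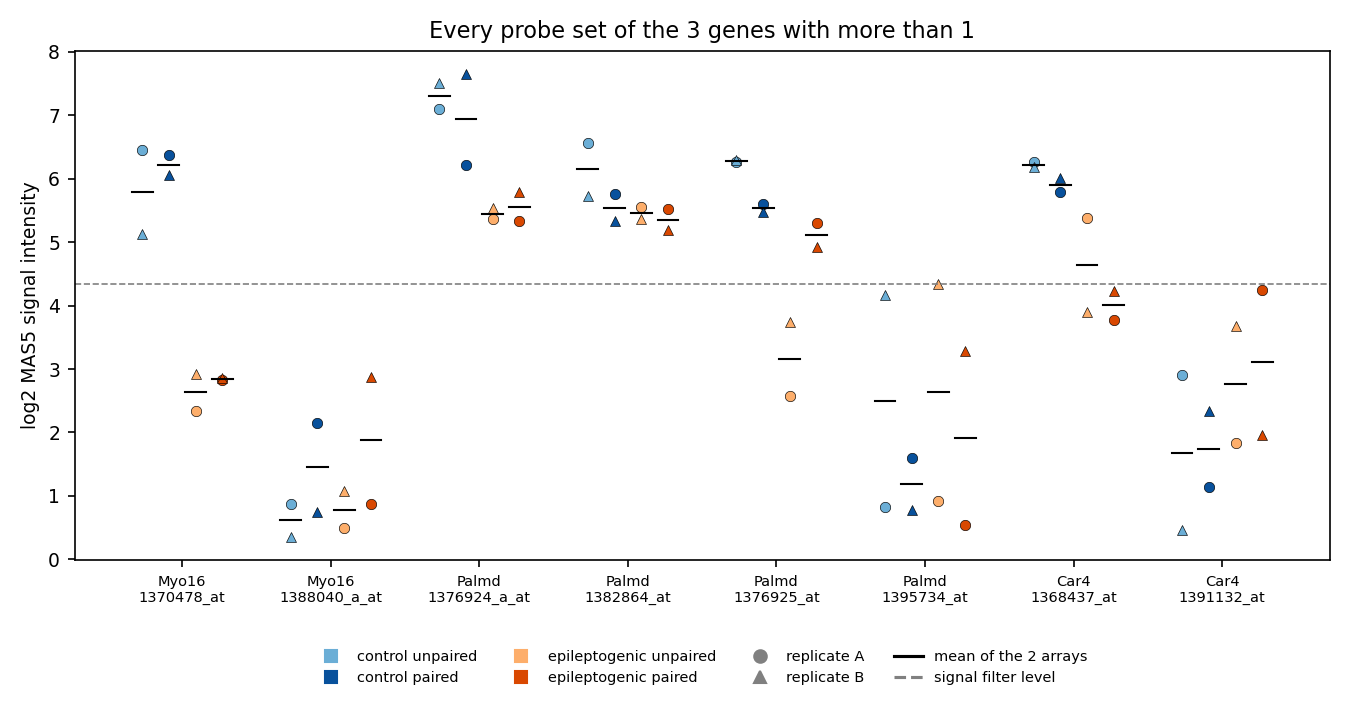
Log2 signal intensity on 8 arrays of each probe set of Myo16 (2), Palmd (4) and Car4 (2), with the same colours, symbols and dashed filter level as in the plot of the 9 genes. The brightest probe set of each gene separates the conditions, while Myo16 1388040_a_at, Palmd 1395734_at and Car4 1391132_at stay under the filter level (log2 4.35).

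The choice of genes without overlap between conditions fixes the direction within each kind of training and each letter, so only the sizes are described here. After unpaired training the log2 difference was -3.15 for Myo16, -2.85 for Zic2, -1.96 for Tsga10 and -1.87 for Hecw1. After paired training these genes stood at -3.37, -2.27, -1.07 and -1.02. Hecw1, Tsga10 and Zic2 were thus closer to controls after paired training. So were Ccn3 (-1.62 unpaired, -1.05 paired), Palmd (-1.86, -1.38) and Adamtsl1 (-1.67, -1.45). Myo16, Plagl1 (-1.40, -1.71) and Car4 (-1.58, -1.89) were farther from controls after paired training. For Hecw1 and Tsga10, epileptogenic paired B lay only 0.47 and 0.58 log2 units under control paired B.

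By letter, Myo16 differed by -3.83 among arrays A and by -2.70 among arrays B, and Zic2 by -3.11 and -2.02. Palmd and Car4 had the larger difference among arrays B, at -1.92 against -1.31 and at -2.02 against -1.45. Leaving out any 1 of the 8 arrays moved none of the 9 log2 differences by more than 1.5 times.

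**Figure D3:**
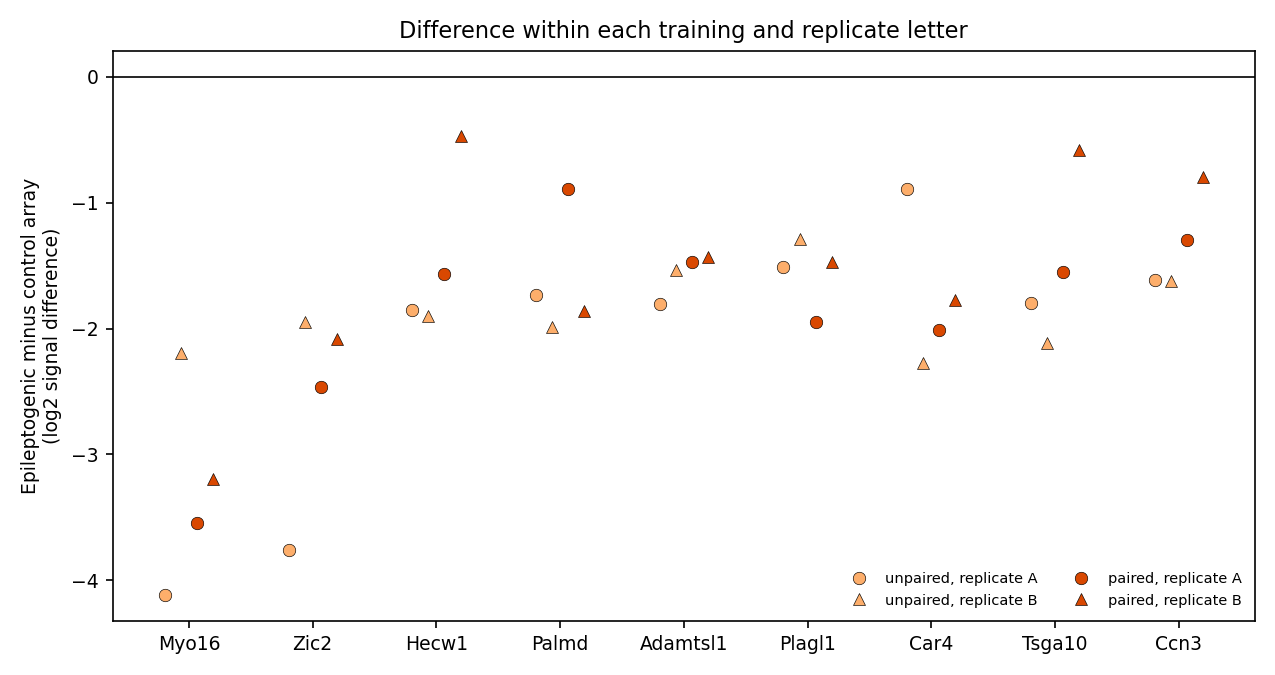
Difference in log2 signal between the epileptogenic and the control array of the same training (light, unpaired; dark, paired) and replicate letter (circle, A; triangle, B), for the brightest probe set of each of the 9 genes. The choice of genes places all 36 points below 0. Myo16 and Zic2 lie lowest, and the paired B point of Hecw1 and Tsga10 comes close to 0.

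Both control groups stand above both epileptogenic groups in all 9 genes through the choice of genes, and the order within each condition was looked at next. Control unpaired had the highest mean for Zic2, Hecw1, Palmd, Car4, Tsga10 and Ccn3, and control paired for Myo16, Adamtsl1 and Plagl1. Epileptogenic unpaired was the lowest group for 8 genes, all but Car4. For these 8 genes the distance to epileptogenic paired was smaller than its SE in the fit, except for Hecw1 (0.67 ± 0.34, log2). It was only 0.018 for Plagl1, 0.086 for Zic2 and 0.11 for Palmd. How often this order occurs over all tested probe sets was not counted, so no pattern is read from it. The control groups did not overlap for 3 genes, Car4, Tsga10 and Ccn3, where both unpaired arrays were above both paired arrays, beside 23.3% of all tested probe sets. The epileptogenic groups did not overlap for 1 gene, Hecw1, where both paired arrays were above both unpaired ones, beside 22.8% of all tested probe sets. With 2 arrays a group such separation is frequent, and for the other genes these neighbours in the order overlapped.

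Paired was then compared with unpaired training over all 8 arrays, a contrast that took no part in the choice of genes. In limma 0 of the 9 genes passed, 0 had an unadjusted p under 0.05, and 0% of all 18625 probe sets passed (214 had an unadjusted p under 0.05). The log2 differences (paired minus unpaired) ran from -0.48 ± 0.38 for Car4 to 0.32 ± 0.47 for Myo16 (SE of the fit; limma adjusted p = 1.00 for both). They were positive for 4 genes and negative for 5, with a median of -0.05 against -0.02 over all tested probe sets. Their SEs lay between 0.22 for Ccn3 and 0.55 for Zic2. An effect several times its SE can still fail the adjustment over 18625 probe sets with 8 arrays, so these values do not show that training left the 9 genes as they were. For 3 of the 9 genes, Myo16, Zic2 and Car4, the mean epileptogenic signal lay under the filter level. These genes were tested through their brighter control arrays, and their training values rest partly on dim signals. The Car4 difference was -0.12 without epileptogenic unpaired A and -0.85 without epileptogenic unpaired B.

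Whether training acted differently in epileptogenic and control rats was tested as an interaction. For this too 0 of the 9 genes passed in limma, 0 had an unadjusted p under 0.05, and 0% of all probe sets passed (274 had an unadjusted p under 0.05). The estimate was largest for Tsga10 at 0.89 ± 0.58 and for Hecw1 at 0.86 ± 0.47 (log2, SE; limma adjusted p = 1.00 for both), and the lowest was that of Car4 at -0.31 ± 0.76. Without epileptogenic paired B the estimates were 0.42 for Tsga10 and 0.44 for Hecw1, below the 1.24 of Zic2. Among the further probe sets, Palmd 1376925_at had the estimate 2.70 ± 0.72, among the 274 with an unadjusted p under 0.05, and did not pass after adjustment over all probe sets (limma adjusted p = 1.00). The estimate of 1376925_at rests on dim signals, as its epileptogenic unpaired arrays read log2 2.57 and 3.74, under the filter level of 4.35. On the brightest probe set of Palmd the estimate was 0.48 ± 0.66. The limit from dim epileptogenic arrays of Myo16, Zic2 and Car4 holds for the interaction too.

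**Figure D4:**
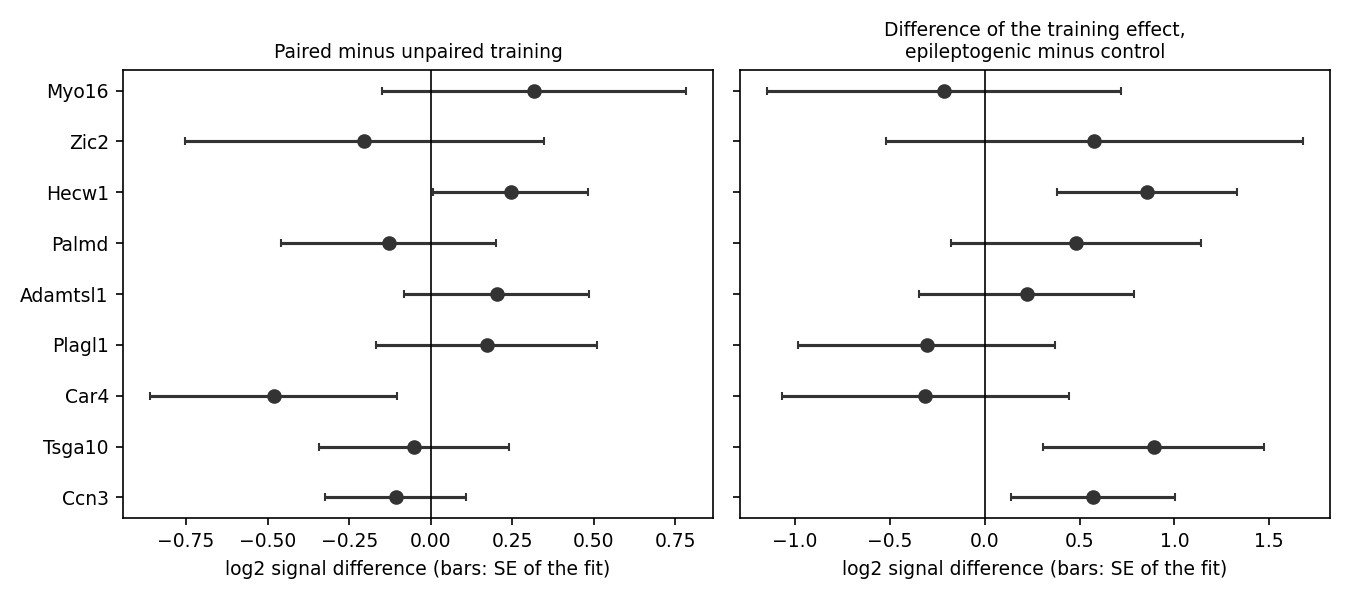
Log2 difference between paired and unpaired training over all rats (left) and the difference of this effect between epileptogenic and control rats (right) for the brightest probe set of each of the 9 genes, with bars for the SE of the limma fit on 8 arrays. Points on the left lie between -0.48 and 0.32, and 0 of the 9 genes passed in either comparison.

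Array letters moved with some of the genes. Zic2 was lower on B than on A by 1.75 log2 units among controls and by 0.66 among epileptogenic arrays, and Plagl1 by 0.61 and 0.25. The opposite held for Palmd, which was higher on B by 0.93 and 0.31, and for Adamtsl1, higher by 0.52 and 0.68. The mean 3′ to 5′ log2 ratio of beta-actin was 2.95 on arrays A and 4.25 on arrays B, while that of Gapdh went the other way, at 3.76 and 3.33. What the letters stand for is not stated, and their part in the results was not tested beyond the values given within each letter.

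Once each group's mean was taken off, pairs of the 9 genes varied both with and against each other. The Pearson correlation of these deviations over 8 arrays, which leave 4 free values, was positive in 16 of the 36 pairs of genes, with a median of -0.13. It was highest for Hecw1 with Ccn3 (0.93), Zic2 with Plagl1 (0.87) and Hecw1 with Tsga10 (0.87), and lowest for Palmd with Plagl1 (-0.98). All genes share the arrays and their letters, and these values are descriptions.

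Other genes with a like profile were sought among the named genes tested, by the Pearson correlation of log2 signal over the 8 arrays, and the 2 nearest were taken for each gene. Correlations lay between 0.964 and 0.989, largely through the shared step between conditions. Myo16 was nearest to Pgap4 and Dcaf5, Zic2 to Atxn7l1 and Odf2, and Plagl1 to Dcaf5 and Tacc2. Palmd was nearest to Ptpn14 and to Lmo3, a LIM-domain gene also read below as a marker of excitatory neurons, at 0.986. Ccn3 was nearest to Scn2a, a neuronal sodium channel gene, at 0.988 and to Cnrip1, which was also nearest to Tsga10 together with Lin7b. Hecw1 was nearest to Acsl4 and Pja2, Adamtsl1 to Rb1cc1 and Lrrn3, and Car4 to Inpp4a and Ssbp2. All of these had a lower mean in epileptogenic arrays, with log2 differences from -1.16 for Lmo3 to -0.27 for Inpp4a, each smaller in size than that of the gene it resembled.

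The relatives and partners of the 9 genes were then read in the comparison of 4 epileptogenic with 4 control arrays. Of 140 genes in 10 lists, 113 have a probe set and 83 were tested, and 1 rose and 1 fell in limma (1.20% each). Over all probe sets 2.81% rose and 0.827% fell, 523 and 154 of them. With the replicate letter as a block, 11 rose and 7 fell, beside 7.58% and 8.65% of all probe sets. Centring each array on its median left 377 higher and 12 lower over all probe sets and moved the median difference from -0.11 to -0.0050.

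Of the unconventional myosins, relatives of Myo16, 0 of 12 tested passed without the block and 4 were lower in epileptogenic arrays. Their median log2 difference was 0.46, and with the block 6 rose and 0 fell. Myo1f, a myosin of white blood cells, had the smallest p, at 2.59 ± 0.63 (log2, SE; limma adjusted p = 0.0592, 0.0179 with the block). Among 10 tested genes of the WAVE complex, of the adaptors that bind Myo16 and of phosphoinositide 3-kinase, 0 passed and 7 were lower. Their median was -0.33, and with the block 3 fell. Abi2, a subunit of the complex, showed -0.74 ± 0.20 (limma adjusted p = 0.0829, 0.00700 with the block).

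Few relatives of the transcription factors were bright enough to read. Of the Zic and Gli zinc finger genes 3 of 10 were tested and 0 passed with or without the block. Zic4 had a difference of -0.48, while Zic1 was too dim to test. Glis2, with the smallest p, showed 0.29 ± 0.23 (log2, SE; limma adjusted p = 0.547), with the opposite sign on its further probe set. Of 14 PLAG factors and imprinted genes tested, only Meg3, an imprinted noncoding RNA, passed, with a decrease of -0.84 ± 0.19 (adjusted p = 0.0471) that was also seen on its further probe set. It was called in 0 of the 8 fits that leave out 1 array, where the difference lay between -0.97 and -0.71. Igf2 and Cdkn1c, imprinted genes that follow Plagl1 in the mouse, showed 0.67 and 0.80 and did not pass (adjusted p = 0.438 and 0.269).

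For the matrix genes, Adamts4, a protease that cuts the proteoglycan aggrecan, rose by 1.28 ± 0.21 (log2, SE; limma adjusted p = 0.0145), the only 1 of 8 tested ADAMTS and ADAMTS-like genes to pass, against the decrease of Adamtsl1. It passed in 4 of the 8 fits with 1 array left out. Ccn2, also called connective tissue growth factor, was the only 1 of 5 other CCN genes bright enough to test, and it showed 0.96 ± 0.30 (adjusted p = 0.125, 0.0331 with the block) while Ccn3 was lower.

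Carbonic anhydrases other than Car4 had a median of -0.18 over 9 tested genes, with 0 passing and values from -1.41 for Car10 (limma adjusted p = 0.215) to 0.93 for Car14. Car14 had the smallest p, at 0.93 ± 0.28 (log2, SE; limma adjusted p = 0.110, 0.0368 with the block) and the opposite sign on its further probe set, and Car2, the main cytosolic form, showed 0.03. In the NEDD4 family 0 of 7 ubiquitin ligases passed with or without the block; Smurf1 showed 0.62 ± 0.32 (adjusted p = 0.354), with the opposite sign on its further probe set, and Hecw2, the closest relative of Hecw1, -0.33. The 3 paralemmin relatives of Palmd had differences between -0.31 and -0.15, and 0 passed (Pakap -0.31 ± 0.16, adjusted p = 0.335). Of the 4 probe sets of Pakap, 3 had a lower and 1 a higher mean in epileptogenic arrays. In the hypoxia response, taken because TSGA10 binds the factor HIF-1α, 0 of 16 passed. Vegfa, which encodes the vascular growth factor, showed -1.12 ± 0.29 (adjusted p = 0.0719, 0.00170 with the block), and its further probe set had the opposite sign.

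**Figure D5:**
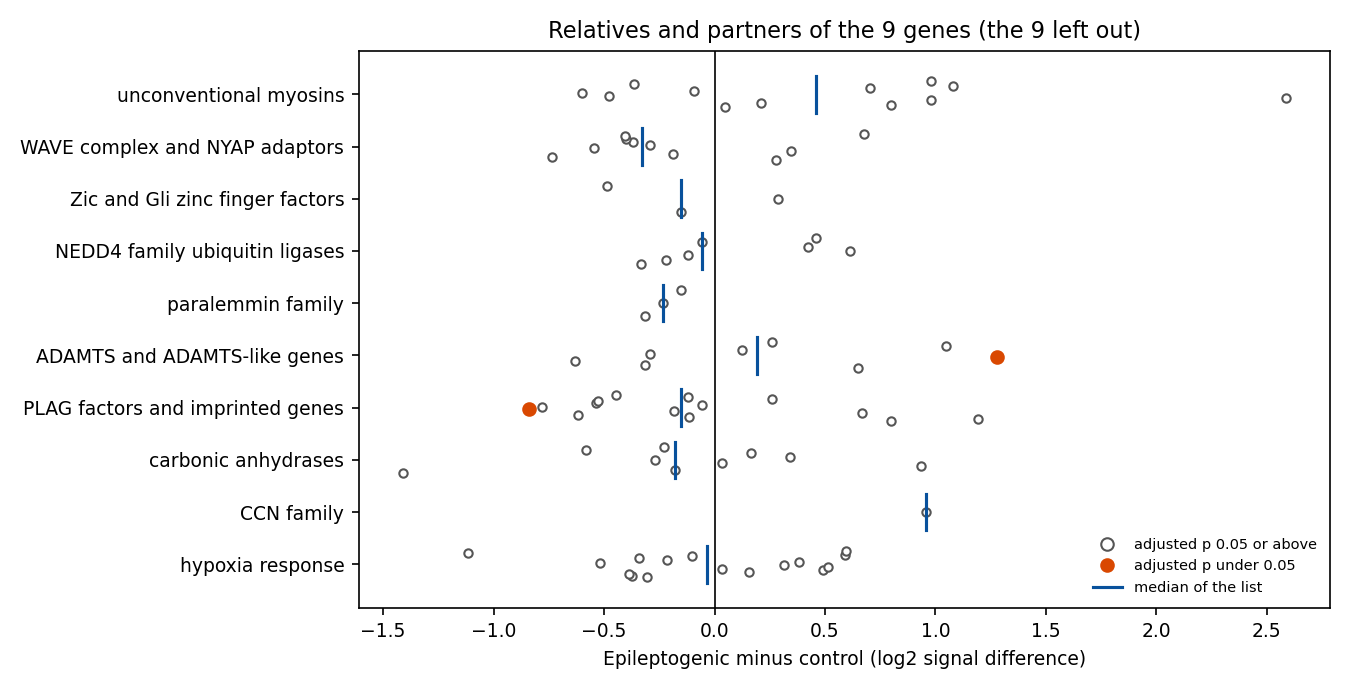
Epileptogenic minus control difference in log2 signal of each tested relative or partner of the 9 genes (points, by list, the 9 genes left out), with filled points for a limma adjusted p under 0.05 and a blue bar at the median of each list. Of 83 genes, Adamts4 at 1.28 and Meg3 at -0.84 are the only filled points.

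Cell type markers were read in the same comparison, and the counts called stand beside 2.81% higher and 0.827% lower over all probe sets (7.58% and 8.65% with the replicate block). Ranges of a list are those of the log2 of its summed signal, in which bright markers weigh most. The 7 markers of excitatory neurons lay between 11.47 and 12.08 in control and between 10.86 and 11.12 in epileptogenic arrays. Of the 6 tested, 2 fell (Lmo3 and Neurod6), or 4 with the block, and Tbr1 was under the filter level on all arrays. Satb1 and Lmo3, with control means of 10.70 and 10.20 (log2), carried most of this sum, so its ranges mainly describe these genes. Whether they are confined to excitatory neurons in this tissue was not tested. Slc17a7 was not called, at -0.85 (limma adjusted p = 0.341, 0.173 with the block). Neurod2 was not called either, at -0.83 (limma adjusted p = 0.227, 0.106 with the block). Satb1 at -0.46 and Camk2a at -0.87 were called only with the block. For 7 markers of GABAergic neurons the ranges were 11.90 to 12.50 and 11.01 to 12.31, with 1 of 5 tested falling (Calb2). The other tested markers were not called, with Gad1 at -0.42, Slc32a1 at -0.32, Gad2 at 0.08 and Vip at 0.19. The microglial sum was between 8.79 and 9.41 in control and between 10.69 and 10.83 in epileptogenic arrays, and 4 of 5 tested markers rose. Astrocyte markers lay at 13.63 to 14.47 and 14.17 to 14.51, with 2 of 5 rising, among them Gfap. Endothelial markers, read because of Car4, summed to 10.22 to 10.61 and 10.57 to 11.01, with 0 of 5 called, or 1 higher with the block. Oligodendrocyte markers lay at 12.32 to 12.64 and 12.65 to 13.85, without overlap, with 0 of 5 called, or 2 higher with the block. Markers of thalamus and habenula were at 9.66 to 9.98 and 10.33 to 10.63, with 1 of 5 tested rising, or 2 higher and 1 lower with the block. Tcf7l2, the brightest of them and so the largest part of this sum, rose by 1.07. Lef1 showed 0.74 (limma adjusted p = 0.0644, 0.00839 with the block), while Prox1 at 0.19 and Rora at 0.13 were not called. Slc17a6 went the other way at -1.13 (limma adjusted p = 0.0951, 0.0214 with the block). The sums were at 7.45 to 8.07 and 8.52 to 10.25 for meninges and fibroblasts (0 of 4 called, 3 higher with the block) and at 11.17 to 11.96 and 10.52 to 12.05 for striatum and central amygdala. Ttr, the choroid plexus marker, ran from 7.24 in control unpaired A to 12.31 in control unpaired B. The log2 ratio of 3′ to 5′ signal of Gapdh, a sign of RNA integrity and amplification, was between 3.33 and 3.69 in control and between 3.09 and 4.19 in epileptogenic arrays. That of beta-actin spread more, from 1.87 (control unpaired A) to 4.42 in control and from 3.07 to 4.45 in epileptogenic arrays. The part of these markers in the lower signals of the 9 genes was not tested.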

How the data were processed

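RNA of the basolateral amygdala was measured on 8 arrays of 16 rats in 4 groups. The authors deposited 1 signal intensity per probe set on a linear scale, made with MAS5 per the submitters' processing notes; its version and scaling target are not given in the sources used here, and detection calls were not used here. Median signals of single arrays ran from 29.0 to 43.2, and correlations between arrays ran from 0.846 to 0.963. The number of arrays limits the precision, and the p-values measure only the spread between pools of 2 rats. The design text and the sample protocols differ on sections, stain and storage, and these details were not used here.

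After log2 transformation nothing was rescaled. Leaving aside 57 control probe sets, the 18625 of 31042 remaining ones whose mean log2 signal was above the 40th percentile (4.35, the filter level, which is no detection limit) were tested; 11 of the 14 probe sets of the 9 genes were among them. Symbols came from GEO's platform annotation (20826 probe sets with 1 symbol, 436 with several, 9780 with none). Each gene's value is that of its brightest probe set on average. A limma 3.58.1 fit (R 4.3.3) of 4 group means with an intensity trend gave 3 contrasts, with Benjamini-Hochberg adjustment over all 18625 probe sets at 0.05. The fit was tested on simulated data. Python 3.11.15 and matplotlib 3.10.9 were used for summaries and figures.

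The 9 genes and the lists were chosen with earlier results of these data known. Named in the text are all 9 genes, up to 3 called genes per list of relatives (or the gene with the smallest p), and the 2 nearest profiles per gene; Zic4, Zic1, Igf2, Cdkn1c, Car2, Car10, Hecw2 and the named cell type markers were added after their values were seen. Deviations from group means correlated between arrays of like letter at 0.321 to 0.407 in 6 of 6 pairs of groups, so the letter was also fitted as a block. The fit was also repeated with quantile normalization, with arrays centred on their medians, with 16 added to each signal, with the filter dropped or set at the 60th percentile, without the trend, with array weights, with probe sets averaged per gene, and with 1 array left out at a time.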

Additional observations from a re-analysis of the deposited data

How the results depend on the processing

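The direction of the 9 genes between epileptogenic and control arrays is fixed by their choice, so its persistence under the alternatives says nothing of stability. The 60th percentile filter gave no value for Myo16, Zic2, Plagl1, Car4 and Tsga10. The number of probe sets called between epileptogenic and control arrays was 677, and it was 389 after median centring, 330 without the intensity trend and 3022 with the replicate block. With 1 array left out it ran from 224 (without epileptogenic unpaired B) to 435 (without epileptogenic unpaired A). Among the relatives, the replicate block called 6 unconventional myosins, 3 WAVE complex genes, 2 ADAMTS genes, 1 carbonic anhydrase, 1 CCN gene, 4 hypoxia genes and 1 PLAG or imprinted gene (Meg3). For training and the interaction 0 probe sets passed in limma with or without the block, while 730 and 1056 had an unadjusted p under 0.05 with it, so the block changed no call of the 9 genes there. None of these training values passed, and several changed sign. Averaging probe sets gave an interaction of 0.021 for Myo16, and median centring a training difference of 0.040 for Tsga10. With 1 array left out, the training difference ran from -0.017 to 0.65 for Myo16, -0.65 to 0.24 for Zic2, -0.49 to 0.23 for Palmd, -0.075 to 0.42 for Plagl1 and -0.28 to 0.18 for Tsga10. The interaction ran from -0.88 to 0.45 for Myo16, -0.32 to 1.47 for Zic2, -0.23 to 1.20 for Palmd, -0.18 to 0.62 for Adamtsl1, -0.80 to 0.19 for Plagl1 and -1.05 to 0.42 for Car4. The cause of these changes was not tested. Dim signals limit the folds of Myo16, Zic2, Car4, Plagl1 and Tsga10. With 16 added, Zic2 differed by -1.71 and Car4 by -1.17. Plagl1 then differed by -1.07 and Tsga10 by -1.12, in place of -1.56 and -1.51.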
